A study of Bos taurus with 24 samples.

Results

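The data are the genes whose RNA change between 24 h and 72 h of differentiation differed between bovine muscle satellite cells grown alone and the same cells grown near fibroblasts. Satellite cells are the stem cells of skeletal muscle. They came from the longissimus dorsi muscle, with genotype WT, as a mix of 3 cell lines at passage 3. In monoculture they were grown alone, and in coculture they shared medium with fibroblasts of passage 10 across a membrane with 0.4 µm pores. Cells were plated at 8000 cells/cm2 in high glucose medium with 20% fetal bovine serum, and after 5 days a change to 10% horse serum started differentiation in every group used here. Of the 24 RNA-seq libraries in the series, 16 enter the comparison, 4 each from monoculture 24 h, monoculture 72 h, coculture 24 h and coculture 72 h. The value under study is the interaction, which is the log2 change from 24 h to 72 h in coculture minus the log2 change from 24 h to 72 h in monoculture. A gene is called when its adjusted p from edgeR's quasi-likelihood test is under 0.05. All 11937 genes of the count table were tested, and 2826 of them were called.

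Satellite cells that are taken off growth serum normally leave the cell cycle, switch on contractile and membrane genes, and fuse into multinucleated fibres. ERK signalling downstream of growth factor receptors keeps myoblasts dividing and drives a set of fast, short-lived transcripts, the immediate early genes, together with phosphatases that switch ERK off again. Interferons and NF-kB drive antiviral and inflammatory genes in most cell types, muscle cells and fibroblasts included. Fibroblasts of muscle secrete matrix proteins and soluble factors that can reach satellite cells through a porous membrane.

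Library totals were 14.97 to 23.87 M counts over the 16 libraries. Levels are scaled counts (CPM), scaled with TMM factors and given in the order of replicates 1 to 4. The labels do not state whether the replicates of a group were cultured separately, and p-values therefore reflect only how much these libraries varied, possibly for technical reasons alone. In these bulk samples, fewer cells of a type and less RNA per cell cannot be told apart. Nuclear ribosomal RNA took more of the counts in 4 libraries than in the other 12, where it was at most 0.934%. These were replicate 2 of the coculture at 24 h (4.07%), replicate 1 of the coculture at 72 h (2.24%), and the third and the fourth monoculture replicate at 72 h (2.14% and 1.76%). Monoculture was sequenced wholly in lane 6 and coculture 72 h wholly in lane 7. Coculture 24 h lies in both lanes, so within lanes the monoculture change can be taken in lane 6 and the coculture change in lane 7 alone. The satellite cell and myogenic markers PAX7, MYF5, MYOD1 and MYOG are not among the genes analysed here, so the labelled cell type could be checked only with broader genes. Group means were 40200 to 61600 CPM for the collagen gene COL1A1 and 86.1 to 148 CPM for the muscle filament gene DES. The 60 measured matrix genes summed to 233000 to 334000 CPM per library. These levels do not establish the labelled cell type. Of 13 leukocyte markers 1 is listed, CD68, and the 18 listed fibroblast and fibro-adipogenic markers summed to 4100 to 5890 CPM in monoculture and 4110 to 5520 in coculture, ranges that overlap. These sums pool both times and can hide single markers. PDGFRA was higher in coculture at 24 h and 72 h, and S100A4 was lower there at 72 h.

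Genes changed over time in both cultures. From 24 h to 72 h, 6430 genes (53.9%) changed in monoculture and 5756 (48.2%) in coculture. The order of these counts depended on the test, since limma voom with a weight per group called 5614 genes in monoculture and 6318 in coculture. At least 2-fold changes were called for 716 genes in monoculture and 552 in coculture. Across all genes the log2 changes had an SD of 0.549 in monoculture and 0.477 in coculture, and their Pearson correlation was 0.778. These are descriptions across genes, which are not independent replicates, and the 2 changes share no library.

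The interaction was called for 2826 of the 11937 genes (23.7%), with a higher value for 1431 (12%) and a lower one for 1395 (11.7%). A higher value means a more positive change in coculture, not a higher level there. Most of the called interactions were small, with a median size of 0.39 on the log2 scale. Among those of at least 2-fold, 176 were higher (1.47%) and 72 lower (0.603%). At an unadjusted p under 0.05 there were 4212 genes. With library totals in place of TMM factors, the median interaction over all genes moved from 0.003 to 0.138 and the called genes split into 2914 higher and 497 lower, so small shared shifts depend on the scaling.

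Sorted by how the response was altered, 1559 of the called genes (55.2%) were blunted, which means that the monoculture change was called and the coculture change was smaller. Of these, 749 were rises and 810 were falls, and the coculture change was not called in 482 of the rises and 411 of the falls. Another 990 (35.0%) were enhanced, 474 of them rises and 516 falls, so that coculture changed more than monoculture in the same direction or where monoculture did not pass the test. In 224 genes (7.93%) both changes were called with opposite signs, 101 of them rising in monoculture and 123 falling there. The other 53 genes met none of these definitions. In 2406 of the 2826 genes (85.1%) the difference between cultures was larger in size at 72 h than at 24 h, and in 1379 (48.8%) its fitted sign differed between the times. The interaction is the 72 h difference minus the 24 h difference, so choosing genes by it shapes both shares. The same shares over all genes are not given here. Between cultures 2836 genes (23.8%) were called at 24 h and 6029 (50.5%) at 72 h.

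**Figure D1:**
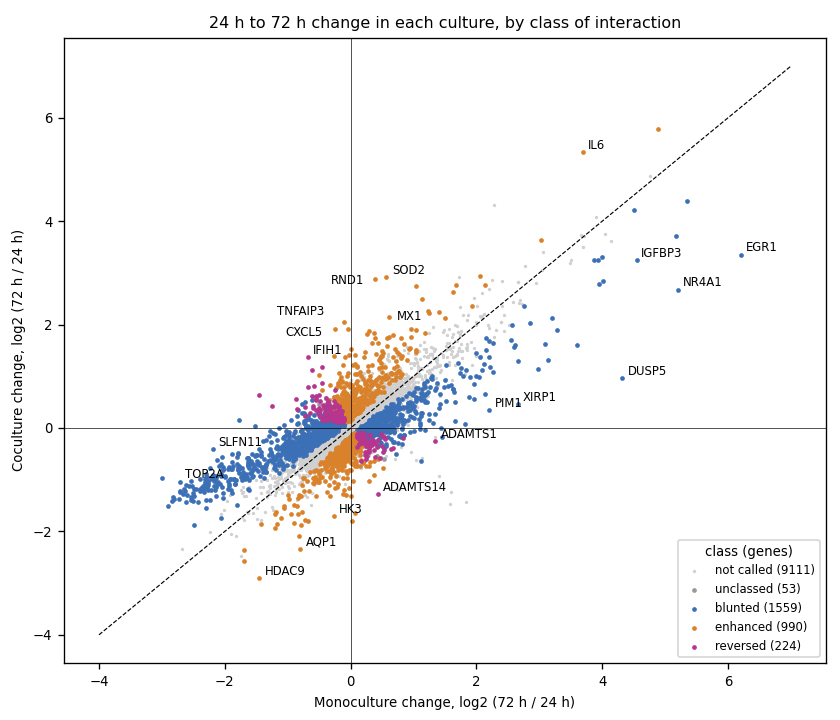
Each point is a gene, with its log2 change from 24 h to 72 h in monoculture on the x axis and in coculture on the y axis, and the dashed line marks equal changes. Blue genes (1559) were blunted, orange genes (990) enhanced and magenta genes (224) reversed in coculture; EGR1, NR4A1 and DUSP5 lie far below the line and SOD2, RND1 and TNFAIP3 far above it.

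Of the 28 lists, the cell cycle genes had the highest median interaction, and their fall was blunted. In monoculture all 50 measured genes of DNA replication and mitosis fell from 24 h to 72 h, with a median log2 change of -1.93. In coculture 48 fell, with a median of -0.91. The interaction was higher for 45 of the 50 and lower for none, with a median of 0.84 against 0.003 over all genes tested, and all 45 were blunted. That is 90% called, against 23.7% over all genes. The cultures had nearly the same levels at 24 h (median difference -0.01) and parted at 72 h (median 0.85).

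TOP2A, the topoisomerase that untangles DNA in dividing cells, stood at 92.2, 109, 108 and 110.0 CPM in monoculture at 24 h and at 15.3, 19.3, 12.6 and 17.1 at 72 h. In coculture it went from 98.7, 107, 100 and 101 to 44.1, 50.8, 51.8 and 51.7 CPM. All 4 coculture libraries at 72 h lay above all 4 of monoculture, while the groups overlapped at 24 h. The interaction was 1.67 ± 0.10 on the log2 scale (SE; edgeR adjusted p = 1.07e-12). MKI67, a marker of dividing cells, fell from 118, 145, 139 and 141 to 22.7, 24.9, 16.9 and 20.8 CPM in monoculture. It fell from 121, 152, 132 and 125 to 50.0, 58, 54.1 and 57 in coculture, again without overlap between the cultures at 72 h (interaction 1.39 ± 0.12, edgeR adjusted p = 9.16e-10). The centromere protein CENPF (1.48), the hyaluronan and spindle protein HMMR (1.51) and the mitotic kinase NEK2 (1.53) had interactions of similar size.

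SLFN11, which blocks DNA replication under replication stress, and PLA2G4A, the phospholipase that releases arachidonic acid, were among the largest blunted falls. SLFN11 fell from 23.5, 33.3, 28.2 and 30.9 to 5.17, 6.49, 5.86 and 8.50 CPM in monoculture, and from 25.1, 33, 26.6 and 30.2 to 17.5, 25.4, 21.8 and 22.2 in coculture. Its interaction was 1.78 ± 0.16 (edgeR adjusted p = 1.63e-09), and the cultures did not overlap at 72 h. For PLA2G4A the monoculture levels were 16.4, 17.8, 18.4 and 18.7 CPM at 24 h and 3.58, 4.91, 7.85 and 4.95 at 72 h. The coculture levels were 15.7, 13.5, 13.2 and 12.6 and 11.2, 19.6, 13.9 and 16.6 CPM, a change that was not called (log2 0.16 ± 0.13).

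Genes that hold cells out of the cycle gave no single direction. Among 25 inhibitors and pocket protein complex genes, 6 had a higher and 4 a lower interaction, which is 40% called against 23.7% over all genes. CDKN1A, which encodes the cyclin-dependent kinase inhibitor p21, was at 216, 215, 226 and 229 CPM in coculture at 24 h and at 288, 279, 308 and 281 at 72 h, a called rise. Its monoculture levels of 297, 370.0, 378 and 360.0 and 381, 378, 351 and 363 overlapped between the times. The antiproliferative gene BTG2 moved the other way, with a rise of log2 2.27 in monoculture and 1.08 in coculture.

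**Figure D2:**
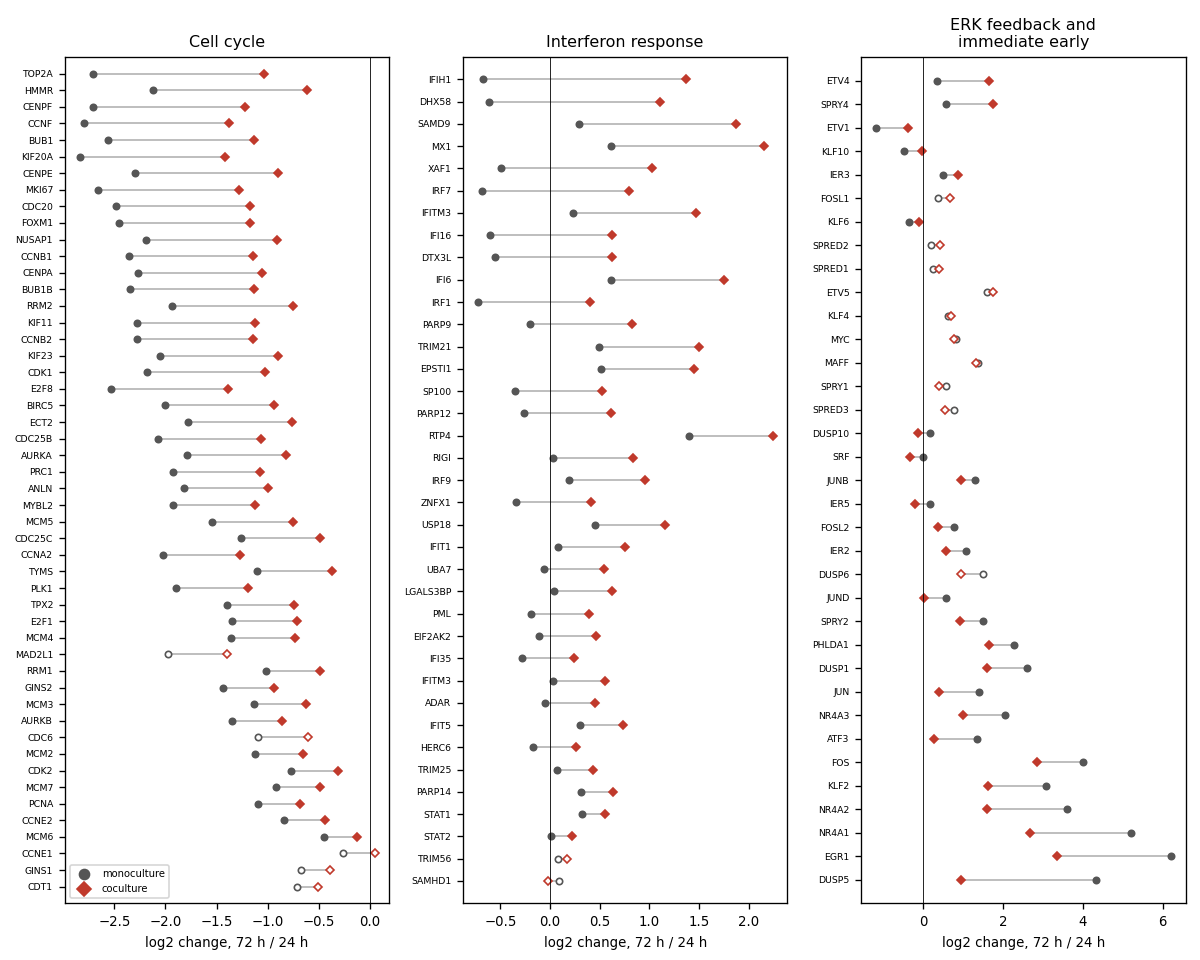
The log2 change from 24 h to 72 h of each measured gene on 3 lists, in monoculture (grey circles) and coculture (red diamonds), joined by a line and sorted by the interaction, with filled marks where the interaction was called. Cell cycle genes fell less in coculture, interferon response genes rose more, and 19 of 35 immediate early genes had a lower interaction. IFITM3 stands for 2 genes listed under that symbol.

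Interferon response genes rose together in coculture and had no common direction in monoculture. Of 37 measured genes, 6 rose and 9 fell in monoculture, and 36 rose and none fell in coculture. The interaction was higher for 35 and lower for none, with a median of 0.76. Of the 35, 26 were enhanced and 9 reversed. The interaction was called for 94.6% of the list, against 23.7% over all genes. At 24 h the list already had a median difference of 0.31 between cultures, and at 72 h it was 1.07.

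IFIH1, a cytoplasmic sensor of double-stranded RNA, stood at 2.51, 3.72, 3.00 and 3.01 CPM in monoculture at 24 h and at 2.32, 1.41, 1.29 and 2.81 at 72 h. In coculture it rose from 3.65, 3.97, 3.67 and 4.50 to 7.52, 14, 10.5 and 9.15 CPM. It was thus reversed, with log2 changes of -0.68 ± 0.22 in monoculture and 1.37 ± 0.17 in coculture and an interaction of 2.05 ± 0.28 (SE; edgeR adjusted p = 1.78e-06). Its monoculture libraries overlapped between the times, and the coculture libraries at 72 h lay above every other one. DHX58, a regulator of the same sensor family, was also reversed (-0.61 in monoculture, 1.11 in coculture). The antiviral GTPase gene MX1, a standard reporter of interferon signalling, was at 2.26, 1.71, 2.79 and 1.51 CPM and then 2.61, 3.61, 3.28 and 3.18 in monoculture. In coculture it rose from 5.44, 14, 8.76 and 18.1 to 46.5, 58.2, 62.1 and 43.9, with an interaction of 1.54 ± 0.39 (edgeR adjusted p = 0.0046). The 2 coculture 24 h libraries of each lane spanned a similar range for MX1, with 5.44 and 14 in lane 6 and 8.76 and 18.1 in lane 7. The antiviral gene SAMD9 had an interaction of 1.58.

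Genes that present peptides on class I molecules mostly fell in monoculture. Of 18 measured genes 3 rose and 13 fell there (median log2 change -0.26), and in coculture 10 rose and 2 fell (median 0.22). The interaction was higher for 13 and lower for none (median 0.41), which is 72.2% called against 23.7% over all genes. TAP1, which pumps peptides into the endoplasmic reticulum, went from 22.2, 24.5, 24.8 and 24.4 to 14.6, 13.9, 14.7 and 14.9 CPM in monoculture and from 17.4, 18.2, 18.4 and 18.3 to 19.1, 24.6, 19.8 and 21.4 in coculture. The peptide-trimming enzyme ERAP2 went from 29.8, 37.7, 36.3 and 33.6 to 22.9, 24.5, 26.2 and 28 CPM in monoculture and from 33.1, 34.5, 30.0 and 30.0 to 44.8, 66.4, 57.4 and 63.4 in coculture. Both were reversed, with interactions of 0.96 and 1.32. For the immunoproteasome subunit PSMB9 the fall was called only in monoculture (-0.75, against 0.29 in coculture).

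The 5 largest enhanced rises were those of RND1, SOD2, TNFAIP3, CXCL5 and MT2A, and 3 of these genes are on the list of cytokines, chemokines and NF-kB targets. Of the 39 measured genes of that list, 24 had a higher interaction and none a lower one, with a median of 0.58. In monoculture 20 of them rose and 8 fell, and in coculture 32 rose and 1 fell. The interaction was called for 61.5% of this list, against 23.7% over all genes.

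SOD2, the mitochondrial superoxide dismutase and a classic NF-kB target, was at 10.6, 12.5, 10.5 and 11.2 CPM in monoculture at 24 h and at 13.4, 13.1, 23.1 and 17.4 at 72 h. It rose in coculture from 15.3, 14.8, 14 and 14.9 to 53.1, 169, 129 and 96.4 CPM. Every coculture library at 72 h was above every other library, and replicate 1 was the lowest of them. The interaction was 2.36 ± 0.32 (SE; edgeR adjusted p = 1.97e-06). The neutrophil chemokine CXCL5 stood at 116, 85.4, 91.7 and 97.8 CPM and then 71.7, 62.3, 108 and 87.3 in monoculture. Its coculture levels were 130.0, 121, 128 and 130.0 CPM at 24 h and 277, 662, 514 and 464 at 72 h (interaction 2.16 ± 0.23, edgeR adjusted p = 1.8e-08). TNFAIP3, a ubiquitin-editing inhibitor of NF-kB, rose from 4.49, 5.77, 6.19 and 5.85 to 12.3, 32.8, 22.1 and 25.9 CPM in coculture and its monoculture change was not called (log2 -0.11 ± 0.20).

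The small GTPase gene RND1 had the highest interaction of all genes tested, at 2.50 ± 0.42 (edgeR adjusted p = 4.06e-05). It was at 4.21, 4.31, 4.16 and 3.89 CPM and then 3.82, 4.12, 8.43 and 5.76 in monoculture, and at 2.99, 3.81, 3.44 and 2.88 and then 9.54, 39.8, 22.7 and 24.8 in coculture. The metal-binding protein gene MT2A, with 5.62, 6.99, 5.04 and 6.08 CPM at 24 h and 10.2, 38.1, 22.1 and 19.5 at 72 h in coculture, changed by -0.04 ± 0.30 in monoculture. PTGS2, the inducible enzyme of prostaglandin synthesis, rose in both cultures, by log2 1.04 in monoculture and 2.74 in coculture. Its mean was lower in coculture at 24 h (1.61 CPM, against 3.3) and higher at 72 h (10.7, against 6.79). Coculture 72 h replicate 1 (4.74 CPM) lay below every monoculture library at 72 h. IL6 rose in both cultures, from 1.70, 1.92, 1.47 and 0.942 to 21.1, 16, 15.5 and 28.2 CPM in monoculture and from 2.93, 3.71, 2.81 and 3.15 to 54.8, 197, 145 and 114 in coculture. Its interaction of 1.65 ± 0.61 stood just inside the threshold (edgeR adjusted p = 0.0482) and missed it in 14 of 27 other settings, for example at adjusted p = 0.0702 in edgeR's test without monoculture 72 h replicate 3.

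In these genes coculture 72 h replicate 1 is the lowest library. Over the 176 genes with an interaction of at least 2-fold in the higher direction, replicate 1 was the lowest of the 4 coculture 72 h libraries in 105 and replicate 2 the highest in 106. Replicate 1 is also the one rich in nuclear ribosomal RNA (2.24%). Without replicate 1 the SOD2 interaction was 2.59 and without replicate 2 it was 2.10. Without replicate 2 the count of cytokines and NF-kB targets with a higher interaction was 18 of 39, and without the 4 libraries rich in ribosomal RNA it was 26.

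The 3 largest blunted rises, those of DUSP5, EGR1 and NR4A1, were on the list of ERK feedback and immediate early genes. Of 35 measured ERK feedback and immediate early genes, 28 rose and 3 fell in monoculture, and the same counts held in coculture. The interaction was lower for 19 and higher for 6, with a median of -0.35, and 20 of the 25 called genes were blunted. That is 71.4% called, against 23.7% over all genes.

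EGR1, a zinc finger transcription factor that responds to ERK activity, was at 1.63, 3.05, 3.37 and 2.70 CPM in monoculture at 24 h and at 229, 181, 220.0 and 181 at 72 h. In coculture it was at 24.9, 36.6, 30.9 and 29.1 and then 311, 317, 313 and 303 CPM. The coculture libraries were above the monoculture libraries at both times, but the monoculture rise was larger (log2 6.20 ± 0.12 against 3.36 ± 0.090, interaction -2.85 ± 0.16, edgeR adjusted p = 7.51e-14). For EGR1 the smaller rise therefore started from a higher level at 24 h. The orphan nuclear receptor NR4A1 also started higher in coculture, at 23.7, 23.2, 21.6 and 20.5 against 9.17, 9.45, 8.11 and 6.59 CPM at 24 h. At 72 h it ended lower, at 141, 134, 145 and 147 CPM against 368, 296, 266 and 308 in monoculture (interaction -2.53 ± 0.12, edgeR adjusted p = 1.99e-15). Its relative NR4A2 had the same course, with an interaction of -1.98.

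DUSP5, a nuclear phosphatase that inactivates ERK, had the lowest interaction of all genes, -3.36 ± 0.38 (edgeR adjusted p = 7.25e-08). It rose from 1.19, 1.00, 1.26 and 1.32 to 30.3, 27.4, 12.2 and 24.4 CPM in monoculture. In coculture it rose from 1.55, 2.01, 2.64 and 2.21 to 5.45, 2.84, 4.25 and 3.94 CPM, and the lowest monoculture library at 72 h was above the highest coculture one. The stress transcription factor ATF3 (-1.07) and the survival kinase PIM1 (-1.86) were blunted as well. PIM1 stood at 59.4, 54, 42.2 and 60.5 CPM in monoculture and 21.3, 18.9, 21.4 and 19.7 in coculture at 72 h. Against the trend of the list, the ETS factor ETV4 (1.30) and the ERK pathway inhibitor SPRY4 (1.17) rose in coculture and were not called in monoculture. SPRY4 was at low levels, with group means of 0.699 to 2.33 CPM. Its monoculture change narrowly missed the threshold (log2 0.571, edgeR adjusted p = 0.0514). ETV4 was at 2.89, 4.72, 4.42 and 4.08 and then 5.08, 4.51, 6.50 and 4.58 CPM in monoculture, and at 1.26, 2.28, 1.49 and 1.71 and then 4.50, 5.51, 4.72 and 6.35 in coculture. It was thus lower in coculture at 24 h without overlap, and the cultures overlapped at 72 h.

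**Figure D3:**
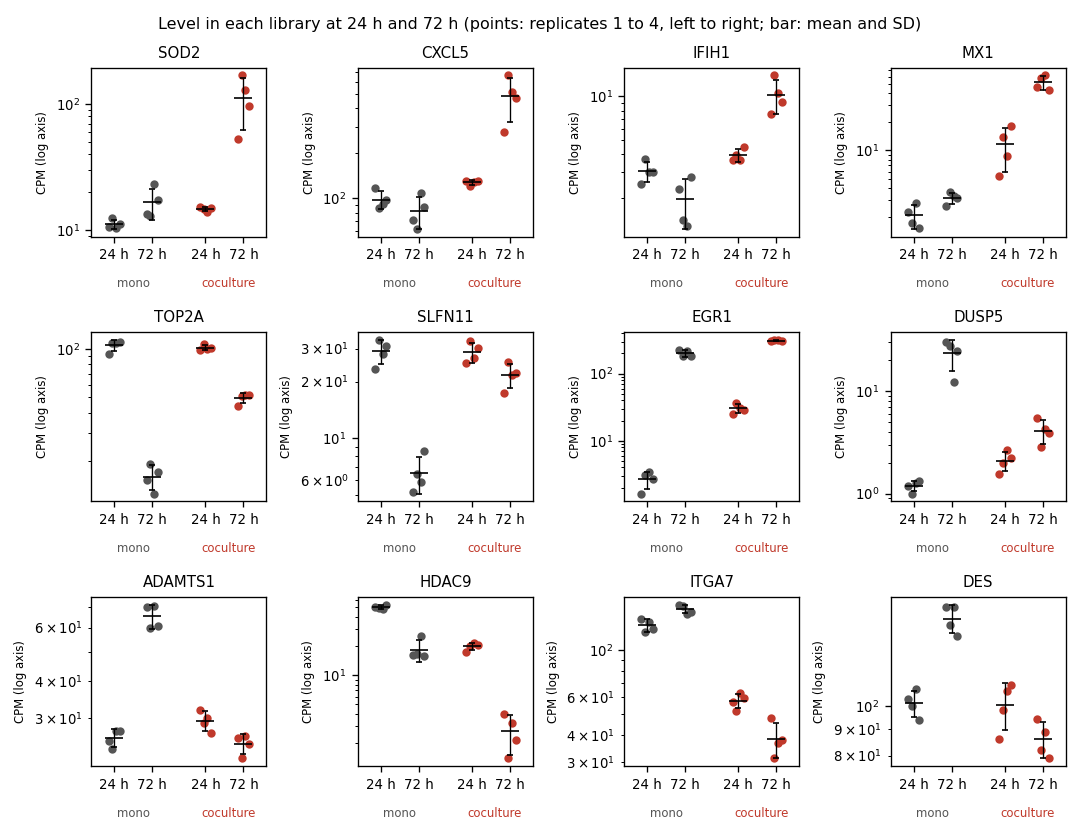
CPM on a log axis for 12 genes in each of the 16 libraries, with monoculture in grey and coculture in red, replicates 1 to 4 from left to right, and the mean with SD in black. The cultures part at 72 h for TOP2A and ADAMTS1, EGR1 already differs at 24 h, and ITGA7 is lower in coculture at both times. SOD2 is slightly higher in coculture at 24 h, a difference that was not called, and much higher at 72 h.

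Several genes of contractile muscle rose in monoculture and did not rise, or fell, in coculture. Of 17 sarcomere genes measured, 8 had a lower interaction and 1 a higher one (median -0.15), while of 16 smooth muscle and pericyte markers 12 were lower and 1 higher (median -0.37). Only 17 of 54 sarcomere symbols are listed. None of these sarcomere genes rose in coculture and 7 fell, against 6 and 6 in monoculture. The smooth muscle and pericyte markers mostly fell in both cultures. In monoculture 4 rose and 9 fell, and in coculture 1 rose and 12 fell. Of their called interactions, 8 were enhanced. The interaction was called for 52.9% of the sarcomere genes and 81.2% of these markers, against 23.7% over all genes. With library totals the median interaction over all genes was 0.138, near the size of the sarcomere median. Counts of these lists with library totals are not given here, so their dependence on the scaling is not shown.

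XIRP1, an actin-binding protein of striated muscle junctions, rose from 1.13, 0.878, 1.53 and 0.690 to 6.67, 6.66, 7.98 and 5.54 CPM in monoculture, and its change in coculture, from 1.79, 1.32, 2.23 and 1.31 to 1.78, 1.39, 2.97 and 2.80, was not called. The interaction was -2.21 ± 0.34 (edgeR adjusted p = 1.1e-05). MYL4, a light chain of embryonic and atrial myosin, had an interaction of -1.64 at levels under 5 CPM. ENO3, the muscle form of enolase, went from 51.3, 59.6, 55.8 and 56.2 to 97.7, 78.7, 95.8 and 83.9 CPM in monoculture and from 60.6, 64.5, 69.3 and 65.5 to 54.5, 43.8, 49.8 and 49.6 in coculture. It rose in the first and fell in the second, and was reversed with an interaction of -1.07 ± 0.11 (edgeR adjusted p = 2.68e-08). 

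DES, the intermediate filament protein of muscle, was reversed too. It rose from 103, 100, 108 and 94 to 156, 144, 156 and 137 CPM in monoculture and fell from 86.2, 98.2, 107 and 110.0 to 94.3, 82.2, 89 and 79 in coculture (interaction -0.77 ± 0.087, edgeR adjusted p = 8.26e-08). The cultures overlapped at 24 h and parted at 72 h. The laminin receptor subunit ITGA7 was lower in coculture from the start, with 57.2, 52, 62.6 and 59.8 CPM against 140.0, 121, 135 and 126 at 24 h. By 72 h it was at 48, 31.1, 36.6 and 38.1 against 162, 161, 148 and 151 CPM, again a rise in monoculture and a fall in coculture (interaction -0.84 ± 0.12, edgeR adjusted p = 2.21e-06). The actin nucleator LMOD1 was reversed (0.29 in monoculture, -0.43 in coculture) and the proteoglycan CSPG4 had an enhanced fall (-0.95 and -1.66). Smoothelin, SMTN, went the other way, as its fall was called in monoculture only (interaction 0.42).

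Regulators and membrane genes of myogenesis were mixed, with 4 higher and 3 lower of 17 regulators and 4 higher and 3 lower of 22 fusion and membrane genes. The interaction was called for 41.2% of the regulators and 31.8% of the fusion and membrane genes, against 23.7% over all genes. Among regulators HDAC9, a class II histone deacetylase that represses MEF2 factors, stood out. It was at 50.6, 48.9, 48.1 and 53.1 CPM in monoculture at 24 h and at 16.1, 16.4, 25.4 and 15.7 at 72 h, and in coculture it went from 17.2, 20.2, 21.4 and 20.6 to 4.03, 1.39, 3.20 and 2.13. It fell in both cultures and fell more in coculture (interaction -1.45 ± 0.21, edgeR adjusted p = 5.52e-06), and monoculture 72 h replicate 3 was above the other 3. MET, the receptor of hepatocyte growth factor, rose in coculture only by the test (log2 0.45, against -0.13 in monoculture; interaction 0.58 ± 0.13, edgeR adjusted p = 0.00142). Its mean was lower in coculture at 24 h (11.1 CPM, against 16 in monoculture). At 72 h the means were 15.1 and 14.7 CPM, a difference that was not called. SPP1, the secreted phosphoprotein osteopontin, fell in both cultures and its interaction was -0.13 ± 0.075 (edgeR adjusted p = 0.229), so a difference in its change was not detected.

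**Figure D4:**
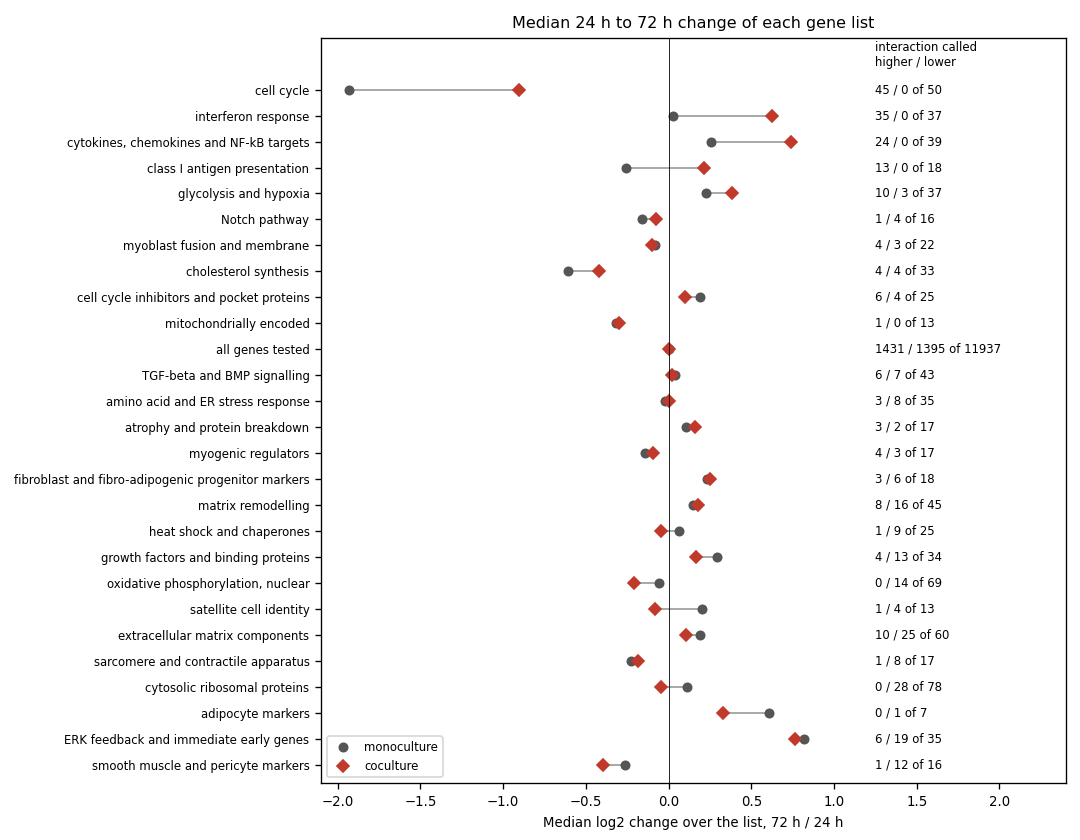
Median log2 change from 24 h to 72 h over the measured genes of each list, in monoculture (grey circles) and coculture (red diamonds), with the number of genes whose interaction was called higher and lower at the right. The endothelial and leukocyte lists are not drawn, and a row for all genes tested is included. Cell cycle genes show the widest gap, from -1.93 to -0.91. Counts with library totals are given in the text for some of the lists only.

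Among secreted proteases the members of 1 family moved in opposite directions. ADAMTS1, which cleaves proteoglycans, rose from 25.2, 23.7, 27.2 and 27.3 to 70.3, 59.9, 70.9 and 60.6 CPM in monoculture and fell from 32, 28.9, 30.2 and 26.9 to 25.9, 22.1, 26.3 and 24.6 in coculture. Its interaction was -1.60 ± 0.10 (edgeR adjusted p = 1.07e-12). The procollagen protease gene ADAMTS14 was also reversed (interaction -1.70). By contrast ADAMTS9 rose more in coculture, from 12.3, 10.6, 10.6 and 11.2 to 43.1, 65.6, 53.8 and 52.4 CPM, than in monoculture, from 3.20, 3.47, 3.32 and 3.14 to 8.90, 8.74, 5.02 and 7.91 (interaction 1.04). ADAMTS5 fell in monoculture and rose in coculture (0.87), and ADAMTS6 fell in monoculture alone by the test (1.13). LOXL4, a collagen crosslinking enzyme, rose by log2 1.52 ± 0.052 in monoculture and 0.52 ± 0.051 in coculture. Of 45 remodelling genes 8 were higher and 16 lower, but 16 and 9 with library totals. The main fit called 53.3% of them, against 23.7% over all genes.

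Among matrix genes 25 of 60 had a lower interaction and 10 a higher one (median -0.15), and with library totals these counts were 14 and 13. The main fit called 58.3% of them, against 23.7% over all genes. COL1A1, the main fibrillar collagen gene, rose by log2 0.57 in monoculture and 0.40 in coculture, and its interaction of -0.17 ± 0.055 (edgeR adjusted p = 0.0245) was lost with library totals (-0.04, edgeR adjusted p = 0.697). The call was also lost without monoculture 24 h replicate 2 or 4, coculture 24 h replicate 3 or coculture 72 h replicate 2. The laminin chains LAMA5 (-0.73) and LAMA4 (0.64) moved apart. LAMA4 rose from 466, 479, 474 and 465 to 765, 834, 801 and 826 CPM in coculture, and from 429, 450.0, 478 and 476 to 467, 531, 526 and 494 in monoculture. The matricellular gene THBS2 fell more in monoculture (-0.89) than in coculture (-0.27). CCN1, a growth factor-induced matrix protein, rose by 0.92 and 0.16 in the same order.

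Signalling ligands and their inhibitors differed as well. NOG, which encodes the BMP antagonist noggin, rose from 7.60, 8.57, 8.53 and 7.72 to 29.9, 26.6, 21 and 25.6 CPM in monoculture, and its coculture change from 11.5, 12.4, 12.9 and 14.9 to 15.8, 14.1, 14.1 and 12.9 was not called (interaction -1.54 ± 0.14, edgeR adjusted p = 1.63e-09). IGFBP3, a carrier of insulin-like growth factors, rose in both cultures, to 50.1, 50.2, 35.1 and 47 CPM in monoculture and to 22.5, 13.1, 20.5 and 17.3 in coculture from overlapping levels at 24 h. TGFB3, a TGF-beta ligand, fell from 92.5, 88, 93.5 and 94.2 to 49.1, 35.8, 40.4 and 39.3 CPM in coculture, and from 93.4, 88.2, 91.7 and 84.1 to 79.7, 80.7, 66.7 and 73.2 in monoculture. The receptor TGFBR1 was reversed, with -0.38 in monoculture and 0.47 in coculture. FGF7, also called keratinocyte growth factor, rose from 29.5, 24.7, 22.1 and 21.7 to 56.9, 81.5, 70.5 and 70.7 CPM in coculture, and from 7.48, 7.90, 8.58 and 9.29 to 16.3, 15.3, 19 and 17.8 in monoculture (interaction 0.48). Its call was lost in voom with group weights and without monoculture 24 h replicate 4. Of 34 growth factors and binding proteins 4 were higher and 13 lower, but 5 and 5 with library totals. The main fit called 50% of them, against 23.7% over all genes.

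PDGFRA, a receptor that marks fibro-adipogenic progenitors, rose in coculture from 71.8, 72.6, 67.1 and 65.3 to 105, 134, 125 and 119 CPM, while its monoculture levels were 48.9, 49.4, 52 and 49.2 and then 45.3, 45, 51.1 and 43.8. The interaction was 0.91 ± 0.082 (edgeR adjusted p = 1.61e-09). Other markers of fibroblasts moved elsewhere, among them decorin, DCN (-0.49), S100A4 (-0.71) and OSR2 (-0.91), so that 3 of 18 were higher and 6 lower (4 and 4 with library totals). The main fit called 50% of them, against 23.7% over all genes. The markers' part in the results was not tested.

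Other enhanced falls chosen by the naming rule were those of a water channel, a hexokinase and a receptor ligand. AQP1 fell from 18.2, 20.2, 18.7 and 21.6 to 9.81, 10.9, 14.6 and 10.2 CPM in monoculture and from 10.7, 13.8, 12 and 11.7 to 2.90, 1.51, 2.80 and 2.32 in coculture (interaction -1.54 ± 0.18, edgeR adjusted p = 2.05e-07). HK3 stood at 16.6, 11.8, 13.6 and 14.4 CPM and then 11.4, 12.2, 12.2 and 10.8 in monoculture, and it fell from 7.36, 6.41, 6.24 and 6.48 to 2.37, 2.20, 1.46 and 2.04 in coculture (interaction -1.45). ALKAL1, a ligand of the ALK receptor, fell in coculture only by the test (interaction -1.32). The small heat shock protein gene CRYAB fell more in coculture, but its interaction of -1.06 became -0.66 without monoculture 72 h replicate 3, a library at 197 CPM where the other 3 were at 82.8 to 88.1.

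Genes of protein synthesis and respiration gave small lower values that depended on the scaling. Of 78 cytosolic ribosomal protein genes 28 were lower and none higher, but 1 with library totals and 12 within lanes. The genes listed as RPS16 and RPL35 had interactions of -0.81 and -1.04, which became -0.10 and -0.20 within lanes. In coculture at 24 h RPS16 was at 7.18 and 7.2 CPM in lane 6 and at 2.69 and 3.42 in lane 7. Both symbols are shared by more than 1 listed gene, so these counts are uncertain. Of 69 nuclear respiratory chain genes 14 were lower and none higher, and with library totals 1 and 1. Heat shock genes were lower in 9 of 25 cases and higher in 1 (6 and 4 with library totals), and amino acid and ER stress genes lower in 8 of 35 and higher in 3 (4 and 9). TGF-beta and BMP genes were split, with 7 of 43 lower and 6 higher (5 and 13). Satellite cell identity genes were lower in 4 of 13 cases and higher in 1 (3 and 3). Atrophy genes had 2 of 17 lower and 3 higher (1 and 5), and the 13 mitochondrially encoded genes had none lower and 1 higher (0 and 3). Over all genes 23.7% were called. The shares were 35.9% for ribosomal proteins, 20.3% for the respiratory chain, 40% for heat shock and 31.4% for amino acid and ER stress. They were 30.2% for TGF-beta and BMP, 38.5% for satellite cell identity, 29.4% for atrophy and 7.69% for mitochondrially encoded genes.

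Within lanes the values of most named genes moved little. TOP2A, IFIH1, EGR1 and DUSP5 kept their direction and call there, and cell cycle genes were higher in 46 of 50 cases, interferon genes in 31 of 37, and immediate early genes lower in 18 of 35. A lane term beside the group means was called for 18 genes, all lower in lane 7, 7 of which were also called in the interaction. It rests on the coculture 24 h libraries alone, since every other group lies in a single lane. Of these, replicate 2 in lane 6 held 4.07% nuclear ribosomal RNA. With so few libraries, lane effects can be missed, and the low count does not show that lane had no part. At an unadjusted p under 0.05 the lane term had 453 genes.

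**Figure D5:**
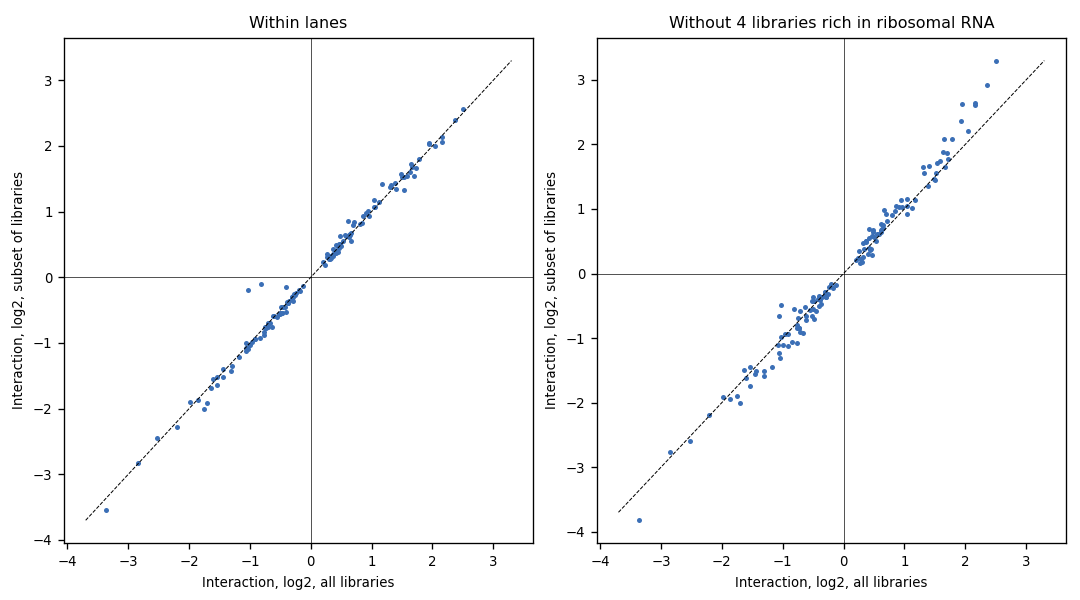
The log2 interaction of the 136 genes chosen by the naming rule from all libraries (x axis) against the same value from a subset of libraries (y axis), within lanes at the left and without 4 libraries rich in nuclear ribosomal RNA at the right. The points follow the dashed line of equal values, apart from the ribosomal protein genes RPS16, RPL35 and RPL17 within lanes.

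The deposited coordinates, whose genome build no source used here gives, place the leading genes as follows. TOP2A (ENSBTAG00000019262) lies on chromosome 19 at 40626894 to 40653419. IFIH1 (ENSBTAG00000008142) is on chromosome 2 at 34111531 to 34192286, and SOD2 (ENSBTAG00000006523) on chromosome 9 at 95954731 to 95966326. DUSP5 (ENSBTAG00000020283) is on chromosome 26 at 31063540 to 31076435, and ADAMTS1 (ENSBTAG00000000706) on chromosome 1 at 9583735 to 9592416. HDAC9 (ENSBTAG00000060258) is on chromosome 4 at 26710138 to 27293366, ITGA7 (ENSBTAG00000012897) on chromosome 5 at 57548782 to 57572012, and all are listed as protein coding.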

How the data were processed

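RNA levels were measured in 24 libraries of 6 groups of 4. The authors deposited gene counts as whole numbers, 1 column per library. The submitters' processing notes list FastQC, STAR, RSEM and DESeq2, with no version. The build of the genome was not given in the sources used here. The counts may be rounded estimates. Of 36 library columns 24 match the labels, and the other 12 were not used. The lowest count of any gene in a used library is 6, so genes silent in one of them are not analysed here, and 893 genes have no symbol and 140 symbols are shared. Symbols came from a second deposited table.

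Counts were analysed with R 4.3.3 and edgeR 4.0.16 with TMM scaling. The filterByExpr rule removed 0 genes. All 24 libraries entered 1 model with a mean for each group (18 residual degrees of freedom), and the interaction was tested with the quasi-likelihood F test, with Benjamini-Hochberg adjustment over 11937 genes. The standard error is the size of the log2 value over the square root of F. The script was tested on simulated data. Alternatives used limma 3.58.1 (voom), DESeq2 1.42.0, other scalings, lanes, left-out libraries and a replicate block.

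The genes and the 28 lists (773 of 970 symbols are listed) were chosen with earlier results of these data known. The naming rule takes the 10 highest and 10 lowest called interactions with a unique symbol and at least 5 CPM in the highest of the 4 groups, the first 4 of each class and direction, up to 3 called genes per list and direction, and 15 fixed genes, of which 6 are not among the genes analysed here. It names 136 genes, of which the text leaves some out, among them 1 with a library that stood apart, which is not reported here. Promoter motifs and sequences were not analysed here.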

Additional observations from a re-analysis of the deposited data

Results flagged for a closer look

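The 2826 genes called in the interaction are by definition genes whose change from 24 h to 72 h differed between the cultures, by a test of the difference itself.

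Single libraries far from the other 3 of their group were looked for in 544 sets of 1 named gene and 1 group, and 31 stood out. Chance alone gives about 1 in 20, and the total is close to that share. Monoculture 72 h replicate 3, which held 2.14% nuclear ribosomal RNA, accounts for 10 of them. It was high for CRYAB (197 CPM), FST (37.7), CAPN1 (246), CAPN2 (571), MYL4 (4.44), FGF10 (21.4) and HDAC9 (25.4), and low for the dividing cell genes NEK2 (1.80), HMMR (5.99) and CENPF (7.34). Coculture 72 h replicate 1 was low for TOP2A (44.1) and high for ADAMTS14 (2.25) and HSPB7 (22.5). In coculture 72 h, replicate 2 stood apart for CRYAB (32.2) and SMTN (124), and replicate 3 for PHGDH (307). Monoculture 72 h replicate 2 stood apart for FABP4 (7.33).

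At 24 h, monoculture replicate 1 was low for ADAMTS5 (5.15), TAP1 (22.2), HDAC4 (6.22) and TOP2A (92.2). Monoculture replicate 3 was high for PDGFRA (52.0), GFRA4 (12.2) and ITGA3 (381), replicate 2 for LIN9 (7.57), and replicate 4 was low for FLT1 (62.6). In coculture at 24 h, replicate 1 was low for FILIP1 (8.25) and ALKAL1 (4.01), and replicate 2 stood apart for IGFBP3 (1.75) and GREM1 (108). Without monoculture 72 h replicate 3 the interaction of HDAC9 was -1.26. The part of ribosomal RNA content in these values was not tested.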

How the results depend on the processing

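The count of called genes was 2826, and the range over the settings was 2371 (within lanes) to 3411 (library totals alone). Library totals alone gave 2914 genes higher and 497 lower, and shared 68.2% of the main calls. The other fits called 2791 genes with median-of-ratios factors, 2740 in DESeq2, 2594 in voom with group weights, 2522 with the 16 libraries alone, 2417 with a lane covariate, 2710 without the 4 libraries rich in ribosomal RNA, 2841 without ribosomal RNA and mitochondrial genes and 2644 among genes of at least 5 CPM. Leaving out 1 library at a time gave 2398 to 2910 calls, with 1226 to 1498 higher, 1170 to 1425 lower, 1327 to 1621 blunted, 812 to 1044 enhanced and 184 to 248 reversed, and the changes over time were called for 5986 to 6417 genes in monoculture and 5211 to 5939 in coculture. With the replicate number as a block 2708 genes were called. The numbers did not pair the samples, since 1 of 24 same-numbered pairs had deviations correlated over 0.1 and in 10 of 48 cases a sample correlated best with its own number. Of the 136 named genes 135 were called. None of the 135 changed direction in any setting, and 104 kept their call in all of them. The cause of these shifts was not tested. Promoter motifs were not run. Depth limits genes of a few CPM, such as XIRP1 and MYL4.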

Other observations

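Genes of glucose use and hypoxia rose more in coculture in part. Of 37 measured genes 10 had a higher and 3 a lower interaction, which is 35.1% called against 23.7% over all genes. Without coculture 72 h replicate 2, 7 were higher. SLC2A1, the glucose transporter of most cells, stood at 13.8, 14.3, 13.8 and 13 CPM in monoculture at 24 h and at 12.8, 12.5, 14.2 and 12.9 at 72 h, and it rose in coculture from 17.2, 18.8, 14.6 and 17.8 to 23.4, 40.1, 31.4 and 29.9 (interaction 0.94 ± 0.15, edgeR adjusted p = 2.09e-05). HK1, a hexokinase, rose from 98.4, 106, 97.8 and 101 to 123, 177, 155 and 151 CPM in coculture and did not pass the test in monoculture. The vasodilator peptide gene ADM was reversed, from 21.2, 23.2, 21.8 and 23.9 to 18.1, 12.9, 17.7 and 17.1 CPM in monoculture and from 16.1, 17.9, 19.1 and 16.2 to 24.8, 56.3, 38.2 and 36.8 in coculture. The glycolytic activator gene PFKFB3 was blunted instead, with log2 changes of 2.09 and 1.13.

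Notch pathway genes gave no common direction. Of 16 measured genes 4 had a lower interaction and 1, MAML1, a higher one, which is 31.2% called against 23.7% over all genes, and the median was 0.12. Among the 4, the target HEYL fell by log2 -1.18 in monoculture and -1.85 in coculture, the receptor NOTCH3 by -0.75 and -1.23, and the ligand JAG1 by -0.29 and -0.81. Of 33 genes of cholesterol synthesis and uptake 4 were higher and 4 lower, which is 24.2% called, near the 23.7% over all genes.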
